A study of Mus musculus with 6 samples.

Results

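Toll-like receptors and CD14 are the genes through which monocytes sense microbial and damage-derived molecules. They were followed here by RNA sequencing of monocytes in nephrotoxic nephritis, in which antibodies against the glomerulus injure the mouse kidney. The 10 genes were chosen by name, as rows of the raw count table for Tlr1, Tlr2, Tlr4, Tlr5, Tlr6, Tlr7, Tlr8, Tlr9, Tlr13 and Cd14, out of 24047 gene rows, and all 10 had a row. One group was 3 kidney libraries, labelled double_pos (replicates 7, 8 and 22), and the other was 3 libraries from spleen and bone marrow, labelled double (replicates 2, 24 and 26). All mice, by the labels, were WT animals of strain C5/Bl6 aged 8 to 10 weeks in which nephritis had been induced, and tissue was taken on day 13. No library came from a healthy mouse, so tissue and inflammation cannot be told apart. Nor can tissue and cell isolation, since isolation is described for the kidney cells alone. A change between tissues below therefore means a difference between these groups of libraries. The labels describe enrichment with a monocyte isolation kit and sorting for the kidney cells alone, do not name the markers behind the word double, and do not say whether a library is 1 mouse or a pool of the 10 mice of the series. The p-values therefore measure the spread between these libraries, which may be technical.

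Toll-like receptors are membrane proteins with an outer or luminal horseshoe that binds the ligand and a cytoplasmic TIR domain that recruits adaptors. The surface receptors recognise parts of the microbial envelope or flagella: TLR2 pairs with TLR1 or TLR6 to bind lipopeptides, TLR4 binds lipopolysaccharide together with MD-2, and TLR5 binds flagellin. CD14 is an anchored or soluble protein that hands lipopolysaccharide and other ligands to these receptors. The endosomal receptors recognise nucleic acid: TLR7 and TLR8 respond to RNA products, TLR9 to DNA rich in CpG, and the mouse receptor TLR13 to bacterial ribosomal RNA. They travel to endosomes with the chaperone UNC93B1 and are cut there by proteases before they signal.

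One pair of members has to be read with care because of its sequence. Tlr1 and Tlr6, both on chromosome 5, are close copies, and the longest coding sequence of each in GENCODE M21 (GRCm38) shares the run below, which is shown because reads from it cannot be assigned to one gene or the other.
Tlr1 and Tlr6 shared run: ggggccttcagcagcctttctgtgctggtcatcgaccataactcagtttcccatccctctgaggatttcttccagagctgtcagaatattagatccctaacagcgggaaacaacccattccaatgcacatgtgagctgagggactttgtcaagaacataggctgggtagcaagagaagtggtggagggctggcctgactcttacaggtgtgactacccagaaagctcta
The run is 229 bases long and lies at coding bases 1468 to 1696 of Tlr1 and 1507 to 1735 of Tlr6. Of all 50-base words of the coding sequences, 19.4% of those in Tlr1 occur in Tlr6 and 19.1% of those in Tlr6 occur in Tlr1. No other pair of the 10 genes shared a 50-base word, and the next longest shared run was 16 bases, between Tlr7 and Tlr13. How reads with more than one match were counted is not given in the sources used here, so the values of Tlr1 and Tlr6 are uncertain. No other annotated gene overlaps an exon of any of the 10 genes in that annotation, so the unstranded chemistry leaves no antisense partner to consider.

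Total counts were 7938223, 7824387 and 3492391 in kidney replicates 7, 8 and 22 and ran from 7311991 to 9727489 in spleen and marrow, so kidney replicate 22 was the shallowest library. It also stood apart in makeup. Its neutrophil markers (8 genes) summed to 43580 CPM (read counts scaled to a common library size by TMM), against 1226 and 4397 CPM in kidney replicates 7 and 8 and 21571 to 29053 CPM in spleen and marrow. S100a8, S100a9, Ngp and Camp made up most of the 43580 CPM and, with Ltf and Cxcr2, were highest in that library. Mmp8 was not, at 139 CPM against 155 CPM in kidney replicate 7 and 279 to 422 CPM in spleen and marrow. Nor was Retnlg, at 133 CPM against 113 CPM in kidney replicate 8 and 62.4 to 169 CPM in spleen and marrow. The conventional dendritic cell markers of kidney replicate 22 (5 genes, 4 of them at 0 there) summed to 5.58 CPM, against 62.3 and 45.5 CPM in the other kidney libraries and 25.8 to 47.9 CPM in spleen and marrow. All of the 5.58 CPM was Flt3, which was at 52.1 and 21.7 CPM in kidney replicates 7 and 8. Cd209a was at 8.18 and 16.7 CPM in those libraries. Xcr1, Clec9a and Zbtb46 were at most 4.42 CPM in any library, so their zeros in the shallowest library say little. Endothelial markers (7 genes) summed to 748 CPM in kidney replicate 8 and to at most 18.0 CPM in any other library. All 8 monocyte markers had counts in every library, with sums of 33315 to 35717 CPM in kidney and 44224 to 61260 CPM in spleen and marrow, most of it Lyz2. Single markers moved apart: edgeR called Cx3cr1 (log2 fold change 2.45), Csf1r (1.67), Fcgr1 (1.31) and Itgam (1.25) higher in kidney and Ly6c2 (-3.11) and Lyz2 (-0.60) lower. The part of this difference in makeup in the results on Cd14 and the receptors was not tested. Resident macrophage markers summed to 4990 to 6040 CPM in kidney and 227 to 246 CPM in spleen and marrow. Most of the kidney sum was C1qb (2383 to 3115 CPM, against 14.0 to 28.3 CPM in spleen and marrow), C1qc and C1qa. Most of the spleen and marrow sum was Emr1 (203 to 214 CPM, against 349 to 460 CPM in kidney). Mertk was at 7.93 to 21.8 CPM in kidney, and Vsig4 and Timd4 were at 0 there. In bulk samples, fewer cells of a type and less RNA per cell cannot be told apart.

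Cd14 was the one member that passed the test, and its transcripts were higher in kidney. It measured 816, 813 and 710 CPM in kidney replicates 7, 8 and 22 and 304, 219 and 255 CPM in spleen and marrow replicates 2, 24 and 26. The groups do not overlap, and the lowest kidney library is well above the highest spleen and marrow library. The mean was 780 ± 60.2 against 259 ± 42.4 CPM (SD, n = 3 each), so that kidney was higher by 1.59 ± 0.16 (SE) on the log2 scale (edgeR, adjusted p = 0.00109). Calls here are adjusted p-values under 0.05 over all 10626 genes that passed the filter on low counts. The call of Cd14 held on leaving out any 1 library, with log2 fold changes from 1.46 to 1.70 and edgeR adjusted p up to 0.0147. Of the 10 members 9 passed the filter, and of these 1 was higher and 0 were lower by edgeR, while 4 were higher and 0 lower at an unadjusted p under 0.05, which 15.4% of all tested genes passed as higher and 12.5% as lower. Over all tested genes 13.7% were called, 7.83% higher in kidney and 5.9% lower, so the members' count is close to that background. Of the 9, the groups did not overlap for 4, all with kidney higher, where the same held for 19.2% of all tested genes. The median log2 fold change of the 9 was 0.65, against 0.05 over all tested genes.

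**Figure D1:**
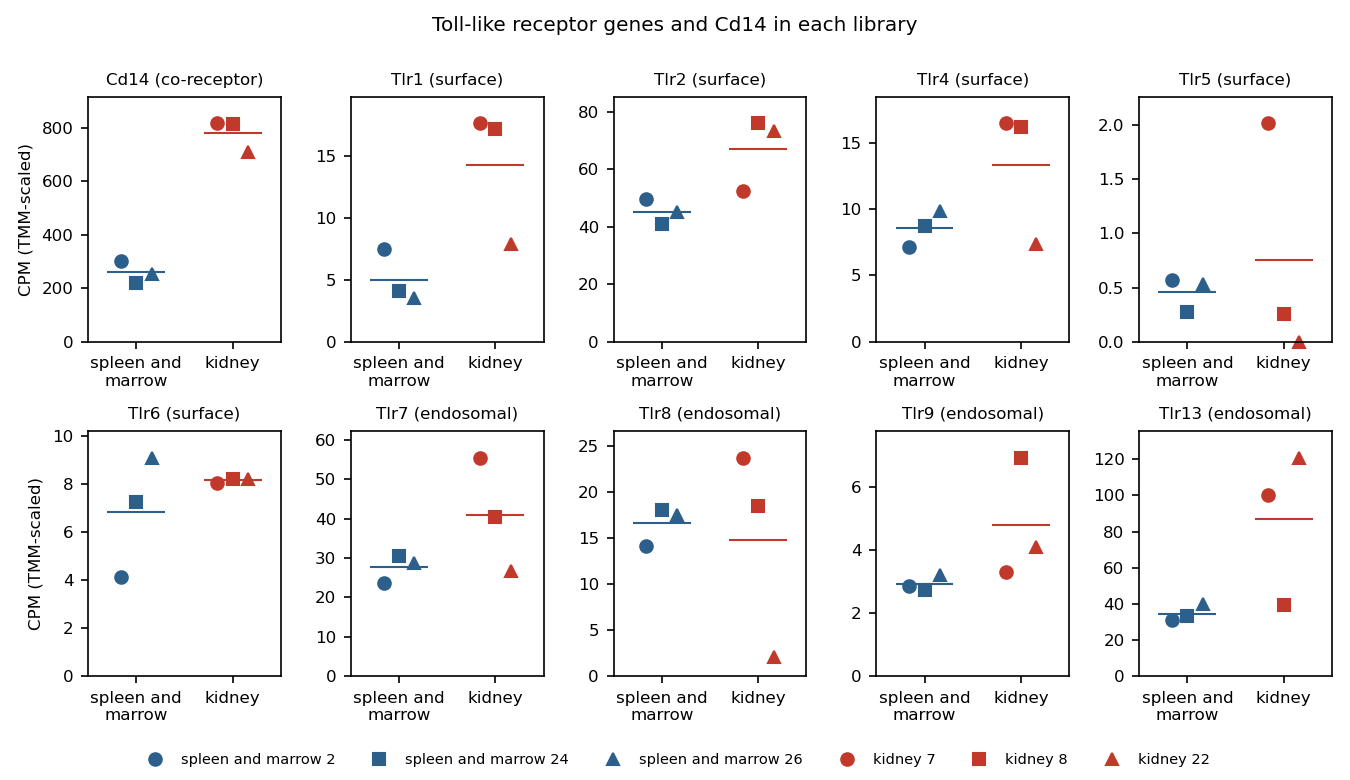
CPM of each gene (y axis, linear from 0, its own scale in each panel) in the 3 spleen and marrow libraries and the 3 kidney libraries. Each point is a library and each line a group mean, and a reader should see the gap between groups for Cd14 and the low kidney replicate 22 (triangle) for Tlr8, at 2.06 CPM.

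Among the surface receptors, Tlr2 was the most abundant and Tlr1 had the largest fold change, and none was called. Tlr2, the shared partner of both lipopeptide receptors, measured 52.5, 75.9 and 73.1 CPM in kidney replicates 7, 8 and 22 and 49.7, 41.0 and 45.0 CPM in spleen and marrow replicates 2, 24 and 26. The groups do not overlap, but kidney replicate 7 lies just above spleen and marrow replicate 2. The log2 change between tissues was 0.57 ± 0.20 (SE, adjusted p by edgeR = 0.106, and 0.0435 without kidney replicate 7).

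Tlr1, the partner for triacylated lipopeptides, measured 17.7, 17.2 and 7.93 CPM in kidney replicates 7, 8 and 22 and 7.46, 4.10 and 3.54 CPM in spleen and marrow replicates 2, 24 and 26. Again the groups only just fail to meet, between kidney replicate 22 and spleen and marrow replicate 2. Its log2 change between tissues was 1.51 ± 0.46 (SE, adjusted p by edgeR = 0.0676). DESeq2 called it (adjusted p = 0.0205), as did limma-voom (adjusted p = 0.0392) and edgeR without kidney replicate 22 (adjusted p = 0.0103). Tlr6, the partner for diacylated lipopeptides and the close copy of Tlr1, measured 8.06, 8.21 and 8.22 CPM in kidney and 4.13, 7.25 and 9.11 CPM in spleen and marrow, in the same replicate order. The 3 kidney values are nearly equal and lie inside the range of the other group. Its log2 fold change of 0.26 ± 0.40 (edgeR adjusted p = 0.728) fell to -0.02 without spleen and marrow replicate 2. The 3 spleen and marrow libraries rank in opposite order for this pair, with replicate 2 highest for Tlr1 and lowest for Tlr6, and the part of shared reads in that was not tested.

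Tlr4, the lipopolysaccharide receptor, measured 16.5, 16.2 and 7.34 CPM in kidney replicates 7, 8 and 22 and 7.12, 8.76 and 9.86 CPM in spleen and marrow replicates 2, 24 and 26. Kidney replicates 7 and 8 were above all spleen and marrow libraries, whereas kidney replicate 22 was among them. The log2 change between tissues was 0.65 ± 0.38 (SE, adjusted p by edgeR = 0.32), and 0.91 with adjusted p = 0.0277 without kidney replicate 22. Tlr5, the flagellin receptor, did not pass the filter, with 17, 2 and 0 counts in kidney replicates 7, 8 and 22 and 5, 2 and 5 counts in spleen and marrow replicates 2, 24 and 26. Of its 19 kidney counts nearly all came from replicate 7, and the 0 in replicate 22 allows up to 0.881 CPM, taken as 3 counts. Without the filter its log2 change was 0.69 (edgeR adjusted p = 0.789). Floors and intervals cover counting error only.

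Among the endosomal receptors, Tlr13 had the largest fold change and none was called, and Tlr8 had the largest ratio between kidney libraries, with the highest 11.5 times the lowest. Tlr13 measured 100, 39.6 and 121 CPM in kidney replicates 7, 8 and 22 and 30.9, 33.0 and 40.0 CPM in spleen and marrow replicates 2, 24 and 26. Kidney replicates 7 and 22 were far above the spleen and marrow libraries, but replicate 8 lay just below the highest of them. The log2 change between tissues was 1.32 ± 0.38 (SE, adjusted p by edgeR = 0.0573). The gene was called by DESeq2 (adjusted p = 0.00704), without kidney replicate 8 (edgeR adjusted p = 0.00538), without the filter (0.0389) and with scaling by library size (0.0489), and on leaving out another library its edgeR adjusted p was 0.0736 to 0.209.

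Tlr7, a receptor for RNA, measured 55.6, 40.4 and 26.7 CPM in kidney replicates 7, 8 and 22 and 23.7, 30.6 and 28.8 CPM in spleen and marrow replicates 2, 24 and 26. As with Tlr4, kidney replicates 7 and 8 were higher than every spleen and marrow library and replicate 22 was within their range. Its log2 change between tissues was 0.57 ± 0.29 (SE, adjusted p by edgeR = 0.242), and 0.77 with adjusted p = 0.0264 without kidney replicate 22.

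Tlr8, the neighbour of Tlr7 on chromosome X, measured 23.7, 18.4 and 2.06 CPM in kidney replicates 7, 8 and 22 and 14.1, 18.1 and 17.5 CPM in spleen and marrow replicates 2, 24 and 26. The value in kidney replicate 22 rests on 7 counts, with a 95% exact binomial interval of 0.826 to 4.24 CPM, below the intervals of all other libraries, of which the lowest began at 11.7 CPM. The log2 change between tissues was -0.14 ± 0.65 (SE, adjusted p by edgeR = 0.916) and turned to 0.33 (adjusted p = 0.296) without kidney replicate 22. Cd180, a receptor of the same family that restrains TLR4 in myeloid cells and was picked out after its values were seen, was low in the same library, at 1.76 CPM (0.647 to 3.83) against 11.1 and 20.0 CPM in kidney replicates 7 and 8 and 12.1 to 15.2 CPM in spleen and marrow. The part of the library's dendritic cell and neutrophil transcripts in these values was not tested.

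Tlr9, the DNA receptor, was the scarcest tested member, at 3.32, 6.95 and 4.11 CPM in kidney replicates 7, 8 and 22 and 2.87, 2.74 and 3.22 CPM in spleen and marrow replicates 2, 24 and 26. The groups do not overlap, yet the lowest kidney library is barely above the highest of the others. The log2 change between tissues was 0.71 ± 0.49 (SE, adjusted p by edgeR = 0.392). Markers of B cells, another cell with much TLR9, summed to 29.2, 29.3 and 47.3 CPM in kidney replicates 7, 8 and 22 and to 25.4 to 26.9 CPM in spleen and marrow. Most of that was Cd79b (28.8 to 40.2 CPM in kidney, 22.6 to 25.0 CPM in spleen and marrow, groups without overlap), Cd79a reached 5.87 CPM in kidney replicate 22, and Ms4a1 was at most 1.17 CPM in any library. The part of B cell transcripts in the Tlr9 values was not tested. Siglech, which defines plasmacytoid dendritic cells, was at 0 in all 3 kidney libraries and at most 1.29 CPM in spleen and marrow. Of the other plasmacytoid markers, Ccr9, Cox6a2 and Pacsin1 were at most 1.78 CPM in any library, and Klk1, a kallikrein gene also active in kidney tubules, was at 7.83 to 71.9 CPM in kidney and at most 0.107 CPM in spleen and marrow. Tubule markers summed to 54.1 to 436 CPM there and to at most 0.821 CPM in spleen and marrow.

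**Figure D2:**
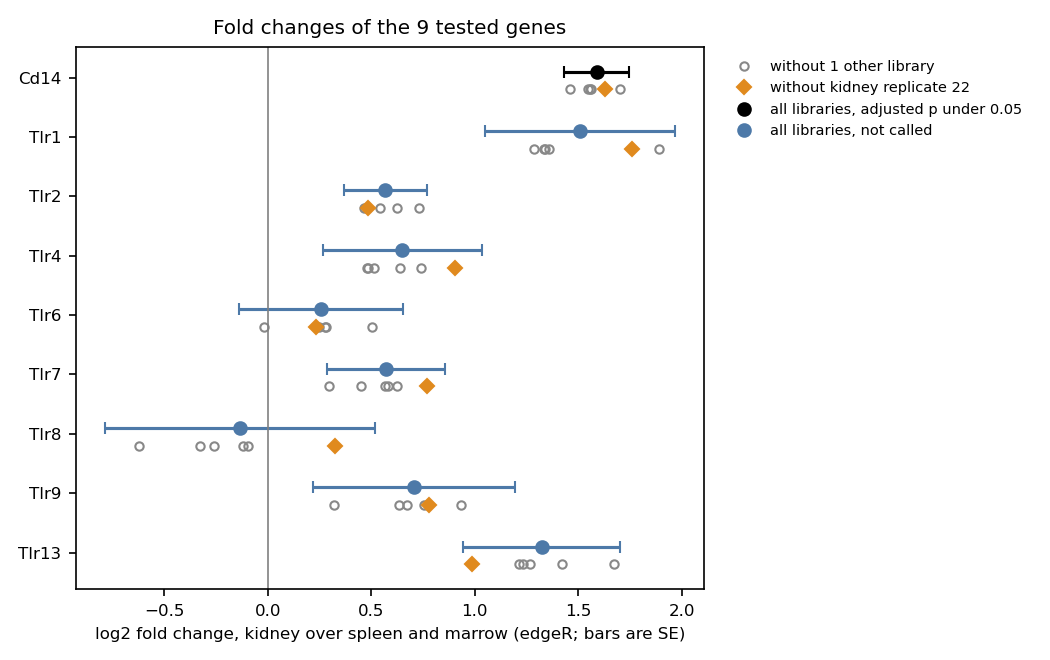
Log2 fold change of kidney over spleen and marrow (x axis) for the 9 tested genes. Large points are the fit on all 6 libraries with SE bars, small open circles leave out 1 other library, and diamonds leave out kidney replicate 22. A reader should see that Cd14 stays between 1.46 and 1.70 while Tlr8 moves from -0.14 to 0.33 without kidney replicate 22.

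The number of receptors called depended most on kidney replicate 22. It was the lowest kidney library for 6 of the 10 genes. Without it edgeR called 4 of 9 members, Cd14, Tlr1, Tlr4 and Tlr7, all higher in kidney, where 14.3% of all tested genes were called higher. Without kidney replicate 7 the calls were Cd14 and Tlr2 (8.15% of all genes higher), and without kidney replicate 8 they were Cd14 and Tlr13 (8.52%). When 1 of the spleen and marrow libraries was dropped, Cd14 was the only member called, but calls also fell over all genes. Genes called higher were 289 of 11248 without replicate 2, 286 of 11284 without replicate 24 and 260 of 11256 without replicate 26. The main fit called 832 of 10626 higher. DESeq2 on all libraries called Cd14, Tlr1 and Tlr13, where it called 11% of all tested genes higher. Limma-voom called Cd14 and Tlr1 (6.94% of all genes higher), and edgeR called Cd14 and Tlr13 with scaling by library size (8.5%) or without the filter (5.51%).

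Set against each other, the surface and the endosomal receptors had similar median log2 fold changes, and the difference between the classes was not tested. Of the surface receptors 4 were tested, all with a positive log2 fold change (0.26 to 1.51, median 0.61), and 3 of the 4 endosomal receptors had one (range -0.14 to 1.32, median 0.64). To compare levels between genes, the authors' FPKM values were used, which are scaled for transcript length. Summed FPKM of the 5 surface receptors was 12.5, 15.9 and 9.22 in kidney replicates 7, 8 and 22 and 8.84, 7.90 and 8.69 in spleen and marrow replicates 2, 24 and 26. Summed FPKM of the 4 endosomal receptors was 17.6, 10.5 and 10.6 in kidney and 6.82, 8.07 and 8.65 in spleen and marrow, in the same order. Both sums were higher in every kidney library than in every spleen and marrow library. For the surface sum the gap was narrow, with 9.22 in kidney replicate 22 against 8.84 in spleen and marrow replicate 2. By CPM, 19.2% of all tested genes had every kidney library above the other group.

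The ratio of the endosomal to the surface sum, which does not depend on how a library is scaled, was 1.41, 0.663 and 1.15 in kidney replicates 7, 8 and 22 and 0.772, 1.02 and 0.995 in spleen and marrow replicates 2, 24 and 26. The kidney libraries spanned the other group on both sides, with a mean of 1.07 ± 0.380 against 0.929 ± 0.137 (SD, n = 3 each). One gene led each class in most libraries. Tlr2 made up 57.0% to 75.5% of the surface sum in kidney and 67.1% to 72.0% in spleen and marrow. Tlr13 made up 51.5%, 34.0% and 74.3% of the endosomal sum in kidney replicates 7, 8 and 22, against 35.4% to 40.6% in spleen and marrow, while Tlr8 made up 1.66% in kidney replicate 22 and 14.6% to 24.7% in the other libraries.

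**Figure D3:**
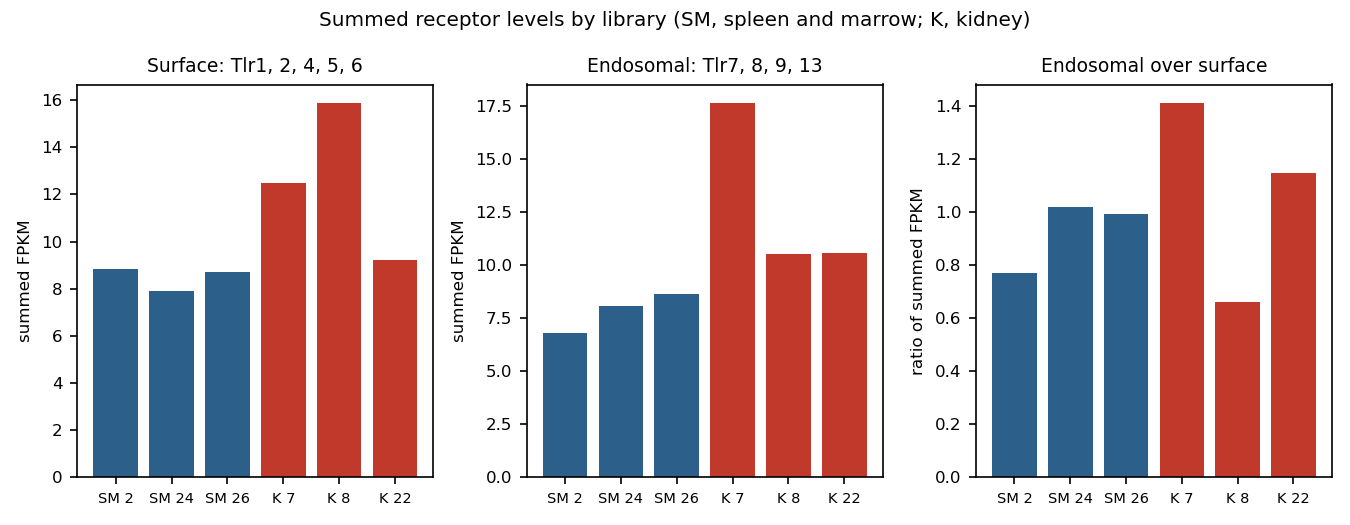
Summed FPKM of the surface receptors, summed FPKM of the endosomal receptors, and the ratio of the second to the first (y axes, from 0), with 1 bar per library (SM, spleen and marrow; K, kidney; numbers are replicates). The ratio runs from 0.663 to 1.41 in kidney, around the 0.772 to 1.02 of spleen and marrow.

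By level per length, Cd14 was far above every receptor. Its FPKM was 199 ± 52.0 in kidney and 67.9 ± 10.7 in spleen and marrow (SD, n = 3 each), higher than 95.8% and 90.5% of tested genes. Relative to the summed FPKM of all 9 receptors it was 7.56, 8.70 and 6.99 times as high in kidney replicates 7, 8 and 22 and 5.06, 3.64 and 3.83 times as high in spleen and marrow replicates 2, 24 and 26, with no overlap between the groups. In spleen and marrow the order after Cd14 was Tlr2 (5.86 ± 0.488 FPKM), Tlr13 (3.02 ± 0.433), Tlr7 (2.71 ± 0.377), Tlr8 (1.81 ± 0.237), Tlr6 (1.01 ± 0.335), Tlr4 (0.830 ± 0.148), Tlr1 (0.725 ± 0.316), Tlr9 (0.307 ± 0.0264) and Tlr5 (0.0489 ± 0.0154). Of these neighbours, Tlr13 and Tlr7, Tlr6 and Tlr4, and Tlr4 and Tlr1 had overlapping ranges. In kidney the mean order was Tlr2 (8.18 ± 1.97 FPKM), Tlr13 (6.84 ± 2.89), Tlr7 (3.96 ± 1.70), Tlr1 (1.84 ± 0.896), Tlr8 (1.63 ± 1.28), Tlr4 (1.22 ± 0.615), Tlr6 (1.20 ± 0.224), Tlr9 (0.483 ± 0.256) and Tlr5 (0.0911 ± 0.132). There all neighbours from Tlr2 down to Tlr6 overlapped in range. Genes farther apart in the order did not all overlap: Tlr2 (lowest library 6.96 FPKM) lay above Tlr7 (highest 5.63), and Tlr13 (lowest 3.58) lay above Tlr1, Tlr8, Tlr4 and Tlr6 (highest 2.58).

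The promoter windows of the receptors with the largest fold changes, Tlr1 and Tlr13, are printed to show a shared short word. The word GAGGAAG, a core bound by ETS factors such as the myeloid factor PU.1, was searched on both strands in windows from 250 bases before to 50 after each RefSeq start (GRCm38.p6), and its matches are in capitals. It was chosen after these sequences were seen.
Tlr1, chr5:64933509-64933808, minus strand: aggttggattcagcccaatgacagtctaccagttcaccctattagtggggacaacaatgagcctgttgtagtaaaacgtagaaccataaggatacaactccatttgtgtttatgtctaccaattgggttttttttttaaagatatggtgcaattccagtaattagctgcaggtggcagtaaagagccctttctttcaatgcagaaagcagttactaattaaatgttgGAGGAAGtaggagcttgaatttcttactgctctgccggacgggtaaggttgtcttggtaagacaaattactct
Tlr13, chrX:106143025-106143324, plus strand: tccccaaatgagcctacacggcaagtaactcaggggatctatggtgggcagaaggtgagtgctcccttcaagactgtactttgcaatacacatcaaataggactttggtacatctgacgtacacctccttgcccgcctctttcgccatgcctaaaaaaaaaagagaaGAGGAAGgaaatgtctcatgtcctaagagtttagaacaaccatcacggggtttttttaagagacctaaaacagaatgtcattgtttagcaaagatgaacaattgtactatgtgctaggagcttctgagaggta
Of 7 receptors matched by symbol, 3 held the word in a window (Tlr1, Tlr9 and Tlr13), as did 15.4% of all genes in the table and 13.6% of all windows. It had the most matches of 4 words searched: an interferon-stimulated response element (ISRE) word was found in Tlr6 alone (3.99% of all genes), TGANTCA (AP-1 type) in Tlr9 alone (8.97%) and an NF-kB word in Tlr2 alone (5.48%). Tlr1 has a second window, without a match. A match is a run of letters and does not show that a factor binds there.

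Other genes of the pathway were taken from lists by role. Of 64 listed genes 55 were tested, and edgeR called 13 higher and 0 lower in kidney, against a background of 7.83% and 5.9%. At an unadjusted p under 0.05 by edgeR 18 were higher and 1 lower, where 15.4% and 12.5% of all tested genes passed. DESeq2 called 14 higher and 1 lower (Lbp), where it called 1164 higher and 995 lower of all 10626 tested genes. The median log2 fold change of the 55 was 0.27. Of the 13 calls, 7 held on leaving out each library in turn. The lists were written with earlier results of these data known.

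Of 8 tested endosomal proteases and nucleases 5 were higher and 0 lower (median log2 fold change 0.90). Lgmn, which encodes an asparagine endopeptidase, measured 776, 662 and 472 CPM in kidney replicates 7, 8 and 22 and 65.8, 76.5 and 77.2 CPM in spleen and marrow replicates 2, 24 and 26, so that kidney was higher by 3.12 ± 0.21 (SE) on the log2 scale (adjusted p = 0.000387, edgeR). The cathepsin genes Ctsl and Ctss rose by log2 folds of 1.57 ± 0.18 and 1.10 ± 0.13 (edgeR adjusted p = 0.00169 and 0.00176). Pld3, an exonuclease of single-stranded DNA and RNA in lysosomes, and Ctsb were the other calls, though Ctsb missed the threshold whenever a spleen and marrow library was left out (edgeR adjusted p at most 0.0784). These proteases act on many other substrates too.

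Of 7 tested chaperone and trafficking genes 3 were higher and 0 lower (median log2 fold change -0.08). Slc15a3, an endolysosomal transporter of bacterial peptides and histidine, measured 44.4, 31.2 and 54.6 CPM in kidney replicates 7, 8 and 22 and 8.15, 12.3 and 12.0 CPM in spleen and marrow replicates 2, 24 and 26, so that kidney was higher by 2.00 ± 0.30 (SE) on the log2 scale (adjusted p = 0.00537, edgeR). Unc93b1, the carrier of the endosomal receptors, was at 388, 361 and 393 CPM in kidney and at 209, 278 and 286 CPM in spleen and marrow, so that kidney was higher by 0.56 ± 0.15 (SE) on the log2 scale (edgeR, adjusted p = 0.0489). That call was lost on leaving out any 1 library, with adjusted p from 0.0561 to 0.138. The row 5430427O19Rik, which encodes the TASL adaptor of SLC15A4, changed by 1.002 ± 0.26 (SE) on the log2 scale (edgeR, adjusted p = 0.0413, and up to 0.161 without 1 library, among them kidney replicate 7 and each spleen and marrow library). Slc15a4 itself (-0.25 ± 0.30) and the folding chaperone gene Hsp90b1 (-0.08 ± 0.21) were not called.

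Of 5 accessory receptors edgeR called 1 higher and 0 lower. At an unadjusted p under 0.05 by edgeR 2 were higher and 1 lower, as were 15.4% and 12.5% of all tested genes. The called gene was Cd36, a scavenger receptor that helps TLR2 with TLR6 sense diacylated lipopeptides. It measured 16.2, 31.2 and 16.4 CPM in kidney replicates 7, 8 and 22 and 0.574, 1.50 and 1.71 CPM in spleen and marrow replicates 2, 24 and 26. Kidney was higher by 4.06 ± 0.52 (SE) on the log2 scale (adjusted p = 0.00279, edgeR). Endothelial cells also make CD36, and kidney replicate 8 held the most of both Cd36 and endothelial transcripts. Leaving out that library gave a log2 fold change of 3.67. Endothelial markers still summed to 18.0 and 10.3 CPM in kidney replicates 7 and 22, against 2.60 to 6.78 CPM in spleen and marrow. The part of endothelial transcripts in the call was not tested. Ly96, which encodes the MD-2 subunit that TLR4 needs, was at 114 to 162 CPM in kidney and 94.9 to 99.0 CPM in spleen and marrow. It was not called (log2 fold change 0.51 ± 0.17, edgeR adjusted p = 0.0858), although the groups do not overlap. Lbp went the other way, at 2.25, 2.78 and 16.4 CPM in kidney replicates 7, 8 and 22 and 20.4 to 33.3 CPM in spleen and marrow. Its log2 fold change of -1.93 ± 0.73 was not called by edgeR (adjusted p = 0.13). DESeq2 (adjusted p = 0.0475) and limma-voom (adjusted p = 0.00982) called it lower in kidney. Of the receptors outside the chosen members, Tlr3, which binds double-stranded RNA, had 58 kidney counts in all, and its log2 change of 2.12 ± 0.68 (SE) was not called (adjusted p = 0.0815, edgeR).

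Of 5 tested adaptors 1 was higher, Pik3ap1, which links the receptors to PI3 kinase (log2 fold change 1.38 ± 0.33, edgeR adjusted p = 0.032, but as high as 0.168 on leaving out kidney replicate 8 or a library of the other group, which ended the call). Myd88, the adaptor of nearly all the receptors, was at 118, 157 and 129 CPM in kidney replicates 7, 8 and 22 and at 166, 163 and 181 CPM in spleen and marrow replicates 2, 24 and 26. Its groups do not overlap, with kidney lower, but the log2 fold change of -0.34 ± 0.15 missed the threshold (edgeR adjusted p = 0.202). Of 11 kinases and ubiquitin ligases edgeR called 0, with 2 higher at an unadjusted p under 0.05, as were 15.4% of all tested genes. Their most abundant members by CPM were Ube2n (log2 fold change 0.16 ± 0.19) and Tab2 (0.37 ± 0.21). Of 7 inhibitors 1 was higher, Socs1, a brake on cytokine and Toll-like receptor signals (log2 fold change 1.90 ± 0.44, edgeR adjusted p = 0.0262, but as high as 0.131 on leaving out kidney replicate 8 or a library of the other group, which ended the call). Of 5 transcription factors 0 were called, with 1 higher at an unadjusted p under 0.05 (15.4% of all tested genes). Irf5 and Irf8, the most abundant by CPM, had log2 fold changes of 0.10 ± 0.21 and -0.15 ± 0.16.

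Of 6 tested inducible targets, which respond to many signals besides these receptors, 2 were higher. Il1b, the cytokine interleukin-1 beta, measured 579, 933 and 547 CPM in kidney replicates 7, 8 and 22 and 105, 51.0 and 50.7 CPM in spleen and marrow replicates 2, 24 and 26, so that kidney was higher by 3.32 ± 0.36 (SE) on the log2 scale (adjusted p = 0.00149, edgeR). Cxcl10, a chemokine induced by interferons, was higher by 3.29 ± 0.56 (SE) on the log2 scale (edgeR, adjusted p = 0.00935, rising to 0.0531 and 0.0553 when replicate 24 or 26 of the other group was left out). Tnf, Il6, Ptgs2 and Nfkbiz were not called, and for each of them spleen and marrow replicate 2 was the highest library of its group. That held for the called Il1b and Cxcl10 too (Cxcl10 76.1 CPM, against 25.7 and 25.8 CPM in replicates 24 and 26). Without spleen and marrow replicate 2, Nfkbiz went from 0.47 to 1.20 on the log2 scale and was called (edgeR adjusted p = 0.0494). Tnf went from -0.31 to 1.11, Il6 from -0.01 to 0.73 and Ptgs2 from -0.92 to 0.08, and these were still not called (edgeR adjusted p 0.421 to 0.985).

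**Figure D4:**
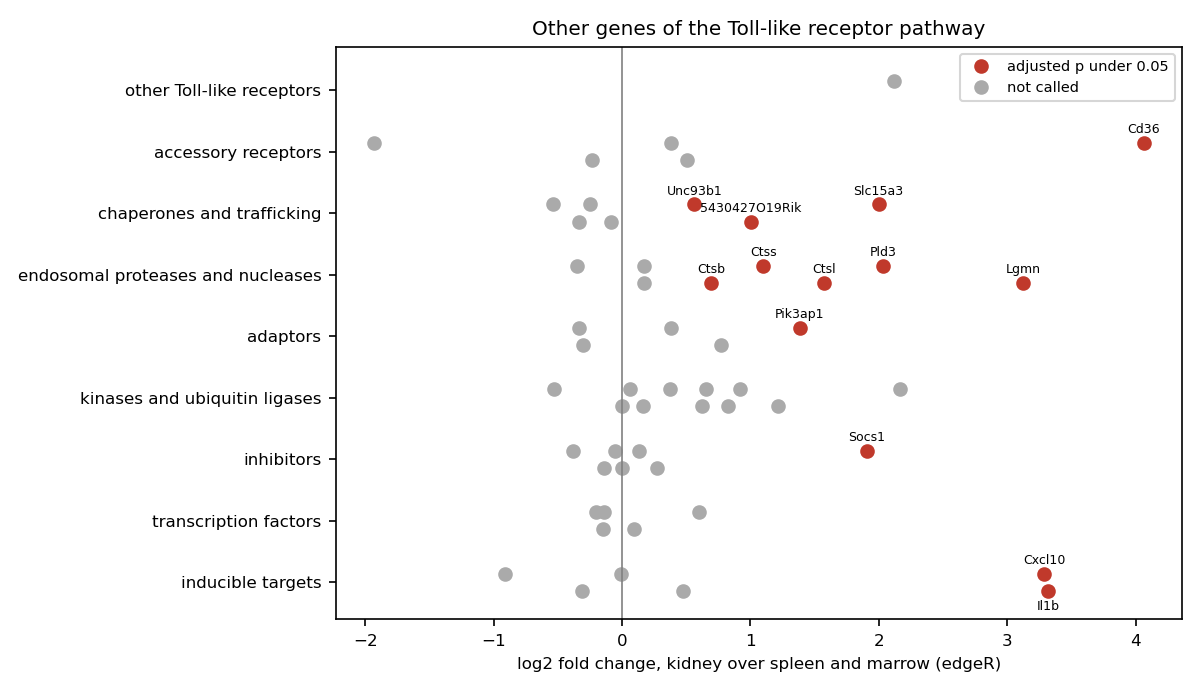
Log2 fold change of kidney over spleen and marrow (x axis) for the 55 tested pathway genes by role (y axis, with points offset for legibility). Red points with names are the 13 edgeR calls, all above 0, and 5 of them are endosomal proteases or nucleases.

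The genes whose levels moved most like chosen members over the 6 libraries were ranked by the root mean square difference of log2 CPM after each gene was centred. Nearest to Cd14 were Myc (0.10), Cd86 (0.12) and Skil (0.12), each of which edgeR called higher in kidney (log2 fold changes 1.59, 1.69 and 1.80). Nearest to Tlr4 were Npepl1 (0.09), Rab43 (0.10) and Psen2 (0.10), and nearest to Tlr7 were Cd93 (0.05), Rab11fip5 (0.08) and Zcchc11 (0.08), none of them called. With 6 libraries in 2 groups such likeness is weak, and it is given as a description.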

How the data were processed

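RNA sequencing was done on 6 libraries. Per the labels' protocols, 2 ng of RNA went into SMART-Seq v4 cDNA synthesis, and cDNA fragments near 150 bp became ThruPLEX libraries, which do not mark strand. The deposited raw counts are whole numbers per gene symbol, and the FPKM values, scaled for depth and length, were made by the authors. The submitters' processing notes name Cufflinks 2.2.1, STAR 2.5 and bcl2fastq 2.18 as tools and mm9 as the build, without saying what each did. For the counting program and the annotation, nothing is stated in these sources.

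The main test was that of edgeR 4.0.16 under R 4.3.3, on counts (filterByExpr, TMM, glmQLFit, glmQLFTest, two-sided, Benjamini-Hochberg adjusted p under 0.05), and the SE is the log2 fold change over the square root of F. CPM uses TMM-scaled library sizes. DESeq2 1.42.0 and limma 3.58.1 were alternatives. The test was checked on counts simulated from these data, 3 libraries against 3. It called 17.9% of genes changed 2-fold, 68.7% of those changed 4-fold and 92.4% of those changed 8-fold. There were 2 false calls among 10626 genes. Most changes of 2-fold were thus missed, so a gene that was not called is not shown to be unchanged. No replicate number occurs in both groups, so no pairing was modelled. The labels do not say whether libraries of the groups came from the same mice, so whether any are paired is unknown. Alternatives were other scalings, filters and tools, a stricter threshold, FPKM, leaving out each library, and summing spleen and marrow replicates 24 and 26. Members, gene lists and tests were chosen with earlier results of these data known. Named genes were all members, up to 3 calls per pathway list and direction by smallest p, the 2 most abundant genes of lists with no call, and the 3 nearest genes to Cd14, Tlr4 and Tlr7. Pathway genes named beyond these (Ctsb, Pld3, Ly96, Cd180, Slc15a4, Hsp90b1, Myd88, Lbp, Tnf, Il6, Ptgs2 and Nfkbiz) and the single markers named were chosen after their values were seen. Promoters were matched by symbol to a RefSeq table of GRCm38.p6 and coding sequences to GENCODE M21, and no mm9 coordinates were used. The promoter of Cd14 is not reported here.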

Additional observations from a re-analysis of the deposited data

How the results depend on the processing

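Cd14 was called with the same sign under all 17 alternatives (log2 fold change 1.46 to 1.70). The number of members higher in kidney (1) became 2 with scaling by library size, 2 without a filter, 3 with DESeq2 and 2 with limma-voom, and was 1 to 4 on leaving out 1 library; none was called lower in any of these. On leaving out 1 library, Tlr8 ran from -0.62 (without kidney replicate 7) to 0.33 (without kidney replicate 22) and Tlr6 from -0.0207 (without spleen and marrow replicate 2) to 0.50, so both changed direction. Pathway genes higher in kidney (13) fell to 8 at a threshold of 0.01 and 7 with spleen and marrow replicates 24 and 26 summed, and were 7 to 15 on leaving out 1 library. Pathway genes lower (0) became 1, Lbp, with DESeq2, limma-voom and both FPKM scales (limma-trend, pseudocount 1 or 0.1), and were 0 to 2 on leaving out 1 library. Over all genes, 832 higher and 627 lower became 1164 and 995 with DESeq2, 468 and 629 on log2(FPKM + 1), 543 and 586 on log2(FPKM + 0.1), 322 and 189 at 0.01, and 299 and 201 with replicates 24 and 26 summed. On leaving out 1 library they ran from 260 to 1569 and from 179 to 1215, the highest without kidney replicate 22. Calls were 57.0% higher, against 42.7% on log2(FPKM + 1) and 46.8% with limma-voom. The median of all genes moved from 0.05 to -0.06 and -0.14 on the FPKM scales. The cause of these changes was not tested. No paired analysis was possible because the groups share no replicate number and the labels do not say which libraries share mice. Low counts in kidney replicate 22 limit the precision of Tlr1, Tlr4, Tlr6, Tlr8 and Tlr9.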
